A study of Mus musculus with 16 samples.

Results

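The 10 genes described here encode endoplasmic reticulum (ER) chaperones and proteins of the ER stress response. They are Hspa5, Hsp90b1, Pdia4, Calr, Sdf2l1, Dnajb11, Creld2, Manf, Xbp1 and Herpud1, taken by symbol from a list chosen with earlier results of these data known, and each symbol matched 1 row among the 55385 genes of the count table. Their RNA was measured by short-read RNA-Seq in 8 organs of the mouse, namely heart, muscle, liver, kidney, lung, spleen and the white and brown adipose tissues. Male C57BL/6 mice from the Jackson Laboratory arrived at 12 weeks of age, were acclimatized for 10 to 14 days on standard chow, and were then either fed freely or fasted for 24 h, with no genetic change in either group. For each tissue, equal parts from the 3 mice of a treatment were pooled into 1 library, which gave 8 fed and 8 fasting libraries, and no value below has a replicate error. The comparison asks how these genes responded to fasting in each organ and across organs.

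Proteins that are secreted or placed in membranes fold inside the ER, where chaperones bind unfolded chains, lectins hold glycoproteins and oxidoreductases form disulfide bonds. When unfolded proteins accumulate, the sensors IRE1, PERK and ATF6 start the unfolded protein response, which raises transcription of chaperones and of the machinery that returns misfolded proteins to the cytosol for degradation. Organs that secrete much protein, such as liver and the plasma cells of spleen, carry large amounts of these chaperones, and the response is known to follow feeding in liver.

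Hspa5 encodes BiP, the Hsp70 chaperone of the ER lumen (ENSMUSG00000026864.13, chr2:34771970-34777547, plus strand, GRCm38). Hsp90b1 encodes its Hsp90 partner GRP94 (ENSMUSG00000020048.13, chr10:86690209-86705509, minus strand). Calr encodes the lectin chaperone calreticulin (ENSMUSG00000003814.8, chr8:84841850-84846934, minus strand), and Pdia4 a protein disulfide isomerase (ENSMUSG00000025823.9, chr6:47796141-47813430, minus strand). The cofactors of BiP are the J-domain protein Dnajb11 (ENSMUSG00000004460.17, chr16:22857845-22879634, plus strand) and its partner Sdf2l1 (ENSMUSG00000022769.9, chr16:17130138-17132383, minus strand). Creld2 (ENSMUSG00000023272.4, chr15:88819646-88826683, plus strand) and Manf (ENSMUSG00000032575.16, chr9:106838312-106891979, minus strand) encode lumenal proteins that are made and secreted under ER stress. Xbp1 encodes the transcription factor activated by IRE1 (ENSMUSG00000020484.19, chr11:5520659-5525893, plus strand), and Herpud1 a membrane protein of ER-associated degradation (ENSMUSG00000031770.16, chr8:94386438-94395377, plus strand). Gene counts cannot separate the spliced from the unspliced Xbp1 mRNA.

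A pair of short promoter motifs are the textbook marks of this gene group, and the stretches that hold them are shown because the members that carry them did not move as one in the data. The motifs are the ER stress response element ERSE, which is CCAAT followed by any 9 bases and then CCACG, and ERSE-II, which is ATTGG followed by any 1 base and then CCACG. Both were searched on either strand in RefSeq windows that run from 250 bases before to 50 bases after an annotated start (build GRCm38.p6). An ERSE contains CCAAT and CCACG, and an ERSE-II contains CCACG and CCAAT on opposite strands. A window was found for 9 of the 10 members. ERSE occurred in 4 of these 9 windows, against 0.119% of all 32851 windows, and ERSE-II in 2 of 9, against 0.0365%. Because the motifs are known marks of this very gene group, these shares are descriptions and not a test of enrichment. Each stretch below is written 5′ to 3′ in the orientation of the motif, with the motif in capitals and 10 bases on either side.
Hspa5, ERSE, chr2:34772015-34772053, plus strand: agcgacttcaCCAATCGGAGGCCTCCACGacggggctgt
Hsp90b1, ERSE, chr10:86705628-86705666, minus strand: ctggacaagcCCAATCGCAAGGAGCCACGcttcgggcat
Hsp90b1, ERSE, chr10:86705523-86705561, plus strand: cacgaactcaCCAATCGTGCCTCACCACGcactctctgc
Calr, ERSE, chr8:84847065-84847103, plus strand: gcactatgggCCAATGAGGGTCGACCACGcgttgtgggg
Creld2, ERSE, chr15:88819510-88819548, minus strand: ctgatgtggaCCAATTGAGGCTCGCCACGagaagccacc
Dnajb11, ERSE-II, chr16:22857842-22857872, plus strand: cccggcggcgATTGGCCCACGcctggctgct
Herpud1, ERSE-II, chr8:94386367-94386397, plus strand: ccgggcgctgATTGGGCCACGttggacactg

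The Hspa5 element lay at -65 to -47 from the annotated start and the Herpud1 element at -52 to -42, while the Dnajb11 element lay just after the start, at 7 to 17. The windows of Pdia4, Sdf2l1 and Xbp1 held neither motif in these letters. The shorter parts are common, since CCAAT was in 37.4% and CCACG in 32.8% of all windows, and each was in 8 of the 9 member windows, all but that of Xbp1. The whole windows of Herpud1 and Sdf2l1 are shown because these 2 genes moved in opposite directions with fasting, with CCAAT and CCACG in capitals on whichever strand they lie. The Sdf2l1 window held CCAAT 4 times and CCACG 3 times, counting both strands.
Herpud1, chr8:94386179-94386478, plus strand: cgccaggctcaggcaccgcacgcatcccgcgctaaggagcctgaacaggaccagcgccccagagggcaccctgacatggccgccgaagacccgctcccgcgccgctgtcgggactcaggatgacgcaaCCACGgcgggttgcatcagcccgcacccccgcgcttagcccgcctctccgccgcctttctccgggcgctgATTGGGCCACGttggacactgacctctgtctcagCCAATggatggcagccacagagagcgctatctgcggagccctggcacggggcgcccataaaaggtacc
Sdf2l1, chr16:17132334-17132633, minus strand: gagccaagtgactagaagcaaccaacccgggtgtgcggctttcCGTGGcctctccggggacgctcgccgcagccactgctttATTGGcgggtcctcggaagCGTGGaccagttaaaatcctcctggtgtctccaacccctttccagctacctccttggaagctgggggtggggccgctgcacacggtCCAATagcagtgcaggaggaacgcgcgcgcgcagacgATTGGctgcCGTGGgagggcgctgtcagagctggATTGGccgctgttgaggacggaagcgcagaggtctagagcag

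The libraries held 14245178 to 36069968 counts on genes, so that 3 counts, used as the floor of detection, corresponded to 0.0832 to 0.211 CPM (a gene's count scaled to the library total). All 10 members lay above that floor in all 16 libraries, with the lowest count (13, Sdf2l1 in fasting brown adipose) far below those of the other members. The marker genes of each organ were 2.77 to 347 times higher in that organ than in the next one, the smallest ratio being that of adipocyte markers in white against brown adipose. The fed spleen library held pancreatic acinar markers at a summed 541 CPM, led by Pnlip at 124 CPM, against 11.7 CPM in the fasting one, and liver held 111 CPM fed and 237 CPM fasting. In both muscle libraries all 10 acinar markers had 3 counts or fewer. The plasma cell markers (5 genes) of spleen summed to 529 CPM fed and 533 CPM fasting. The summed fibroblast markers (4 genes) were lower in the fasting library of all 8 tissues, from 1332 to 966 CPM in muscle and from 1106 to 747 CPM in lung, for example. Within that list Col3a1 was lower in all 8 tissues and Dcn higher in all 8, so its members, Dcn named after its values were seen, did not move together. The part of these other cells in the results below was not tested, and in bulk tissue fewer cells of a type and less RNA per cell cannot be told apart.

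Herpud1 and Sdf2l1 moved in opposite directions with fasting. Calr and Manf were lower in the fasting library of all 8 tissues, though the sign of Manf in kidney and lung changed with the scaling. The other members went both ways. Herpud1 was higher in the fasting library of all 8 tissues and rose past the threshold in 7, while Sdf2l1 was lower in all 8 and fell past it in 6. Hspa5, Hsp90b1, Pdia4, Calr and Manf fell together with Sdf2l1 in heart, and apart from heart the changes of these 5 genes that passed were scattered over muscle, kidney and lung. A gene was called where its log2 fold change exceeded 0.5 in size and Fisher's exact test (two-sided, unadjusted) on the counts of the 2 libraries gave a p-value under 0.01. That test compares 2 libraries and not the conditions. Of the 80 pairs of a member and a tissue, 7 were called up and 17 down. Over the 8 tissues 4.99% of all pairs of a gene and a tissue were called up and 6.15% down, or 7.31% and 8.67% of those with at least 10 CPM in a library, so the share of members called up was near that background. With edgeR's exact test and a coefficient of variation between pools set to 0.2, 2 pairs were called up and 5 down, where 1.76% and 1.33% of all pairs were, or 2.23% and 1.68% of those with at least 10 CPM.

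**Figure D1:**
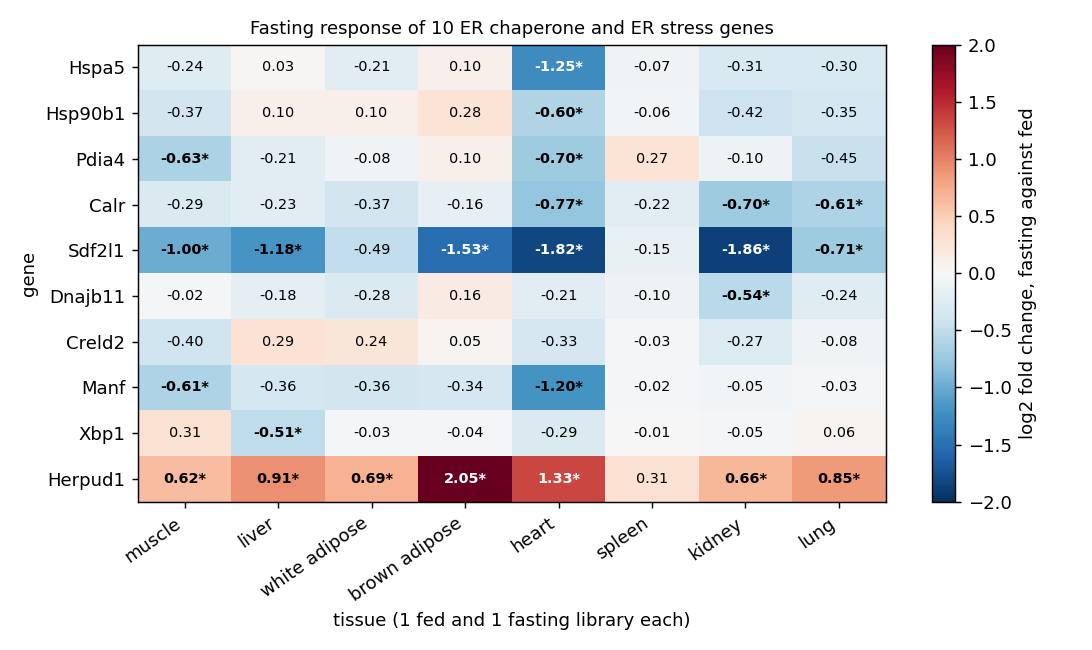
Log2 fold change of each member (rows) in each tissue (columns), fasting against fed, from CPM with 0.01 CPM added to both libraries. Red is higher and blue lower in the fasting library, and bold values with a star passed the call. The Herpud1 row is red throughout, from 0.31 in spleen to 2.05 in brown adipose, the Sdf2l1 row is blue throughout, and the heart column holds 6 of the 17 calls down.

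In heart, 6 of the 10 members fell (Hspa5, Hsp90b1, Pdia4, Calr, Sdf2l1 and Manf), against 5.8% of all genes with a count and 9.57% of genes with at least 10 CPM in a library. At the assumed coefficient of variation of 0.2 the calls of Hspa5, Sdf2l1 and Manf held and those of Hsp90b1, Pdia4 and Calr were lost. Herpud1 alone rose there, against 4.33% and 7.36% of the same genes. The median log2 fold change of the members in heart was -0.65, compared with -0.05 for genes with at least 10 CPM. No other tissue had a member median below -0.33. In the same libraries the 4 cardiomyocyte markers summed to 46267 CPM fed and 42129 CPM fasting, with Myh6 at 30767 and 31097 CPM, Actc1 at 10124 and 5489 CPM and the atrial Myl7 at 14.5 and 0.918 CPM (250 and 14 counts). The hepatocyte markers summed to 28.7 CPM fed and 87.0 CPM fasting in heart. Actc1 and Myl7 were named after their values were seen. The part of these shifts in the heart result was not tested.

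In kidney, Calr, Sdf2l1 and Dnajb11 fell, against 3.93% of all genes with a count and 4.81% of those with at least 10 CPM, and Herpud1 rose, against 2.77% and 3.78%. Calr and Sdf2l1 fell in lung, where 6.49% and 6.76% of genes were called down, and Herpud1 rose, where 2.68% and 3.68% were called up. The member medians were -0.29 in kidney and -0.27 in lung, with 9 and 8 of the 10 members below 0 (7 in each when TMM factors scaled the libraries). Muscle had 3 members called down, Pdia4, Sdf2l1 and Manf, against 9.39% and 13.6% of genes, and Herpud1 called up against 4.42% and 8.96%. Its member median was -0.33, against -0.10 for genes with at least 10 CPM. In the lung libraries the B cell markers (3 genes) summed to 114 CPM fed and 55.1 CPM fasting, the cardiomyocyte markers (4 genes) to 833 and 492 CPM and the kidney tubule markers (4 genes), most of them Lrp2, to 346 and 200.4 CPM. In the muscle libraries the adipocyte markers (3 genes) summed to 83.9 CPM fed and 38.6 CPM fasting. The part of these shifts in the lung and muscle results was not tested.

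In liver, Sdf2l1 and Xbp1 fell, which is close to the background of 9.52% and 15.4% of genes called down, and Herpud1 rose, where 4.46% and 7.37% of genes did. In brown adipose only Sdf2l1 fell (7.58% and 12% of genes) and only Herpud1 rose (5.39% and 9.5%), and the member median was 0.08. In white adipose no member was called down, where 5.84% and 9.26% of genes were, and Herpud1 was called up, as were 13.2% and 15.9% of genes. Among 10 genes, 1 call is a share near these backgrounds. In the white adipose libraries the kidney tubule markers (4 genes), led by Lrp2, summed to 64.7 CPM fed and 744 CPM fasting. Nearly all of that rise was Lrp2, at 34.9 CPM fed and 710 CPM fasting. Kap was at 20.4 and 18.2 CPM, Umod at 4.38 and 9.04 and Slc34a1 at 5.07 and 6.96, all named after their values were seen. The adipocyte markers (3 genes) summed to 12579 and 9794 CPM there. The part of these shifts in the white adipose result was not tested. In spleen no member was called in either direction by Fisher's exact test (two-sided) and the fold threshold, and few genes were, with 1.62% and 1.25% down and 2.31% and 2.49% up.

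Hspa5, which encodes the most general chaperone of the ER, moved in heart and little elsewhere. Its level in the fed and the fasting library was 147 and 124 CPM in muscle, 783 and 797 in liver, 393 and 340 in white adipose, 350 and 375 in brown adipose, 769 and 323 in heart, 393 and 375 in spleen, 506 and 410 in kidney and 415 and 336 in lung. The fed heart library was among the highest of the 16 and the fasting one among the lowest. The count fell from 13236 to 4931 in heart, a level 2.38 times lower with fasting (95% interval 2.30 to 2.46, exact and for counting error only). In the other 7 tissues the log2 fold change lay between -0.31 and 0.10 and was not called.

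Hsp90b1 fell in heart as well, from 399 to 263 CPM (log2 fold change -0.60), and lay between -0.42 in kidney and 0.28 in brown adipose elsewhere. In liver it stood at 795 CPM fed and 852 CPM fasting, and the ratio of fasting to fed in liver was 1.07 (1.05 to 1.09), beside 1.02 (0.997 to 1.04) for Hspa5. Of the exon bases of Hsp90b1, 10.3% are shared with 1810014B01Rik on the opposite strand, which had at most 405 counts in a library against at least 2205 for Hsp90b1.

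Calr was lower in the fasting library of all 8 tissues. Its level, fed and then fasting, was 116 and 94.5 CPM in muscle, 723 and 616 in liver, 357 and 275 in white adipose, 258 and 231 in brown adipose, 318 and 187 in heart, 358 and 308 in spleen, 724 and 445 in kidney and 403 and 263 in lung. The decrease passed the threshold in heart (-0.77), kidney (-0.70) and lung (-0.61), and all 3 calls were lost at the assumed coefficient of variation of 0.2. Of the 5263 genes that reached 10 CPM in all 16 libraries, 7.51% were lower with fasting in all 8 tissues and 3.25% higher, so a shared direction alone is not rare.

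Pdia4 fell in heart, from 45.6 to 28.0 CPM, and in muscle, from 14 to 8.99 CPM (log2 fold changes -0.70 and -0.63). In spleen its value was 264 CPM fed and 317 CPM fasting (0.27), the only tissue besides brown adipose (0.10) where it was above 0. Pdia4 varied more between organs than the other members, 13.5-fold between the lowest fed tissue (muscle) and the highest (liver) in TPM, a scale that also divides by gene length.

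Sdf2l1, a small ER-resident partner of Dnajb11 known from mouse liver as a gene induced on refeeding, had the lowest log2 fold change of the 10 members in 7 tissues, all but spleen. Fed and fasting levels were 2.08 and 1.03 CPM in muscle, 26.7 and 11.8 in liver, 9.45 and 6.71 in white adipose, 2.65 and 0.913 in brown adipose, 6.51 and 1.84 in heart, 23.9 and 21.6 in spleen, 9.76 and 2.68 in kidney and 12.6 and 7.71 in lung. Kidney and heart showed the strongest falls, and spleen, with a high level in both libraries, the weakest. In kidney the count went from 219 to 69, a level 3.64 times lower (2.77 to 4.85), in heart from 112 to 28, 3.55 times lower (2.33 to 5.57), and in liver from 616 to 294, 2.27 times lower (1.97 to 2.62).

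The lowest Sdf2l1 counts gave the widest intervals. Brown adipose had 44 counts fed and 13 fasting (Fisher's exact test, p = 0.000442), a level 2.90 times lower with an interval of 1.54 to 5.87, and muscle 50 and 32 counts (p = 0.00244). In muscle the call was lost when p-values were adjusted over all genes by the Benjamini-Hochberg method. In white adipose the log2 fold change of -0.49 missed the threshold of 0.5 (Fisher's exact test, p = 0.00067). It passed when libraries were scaled by edgeR's TMM factors (-0.60) or by DESeq2 (-0.61). That its window shown above held neither motif says only that these letters are not there.

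**Figure D2:**
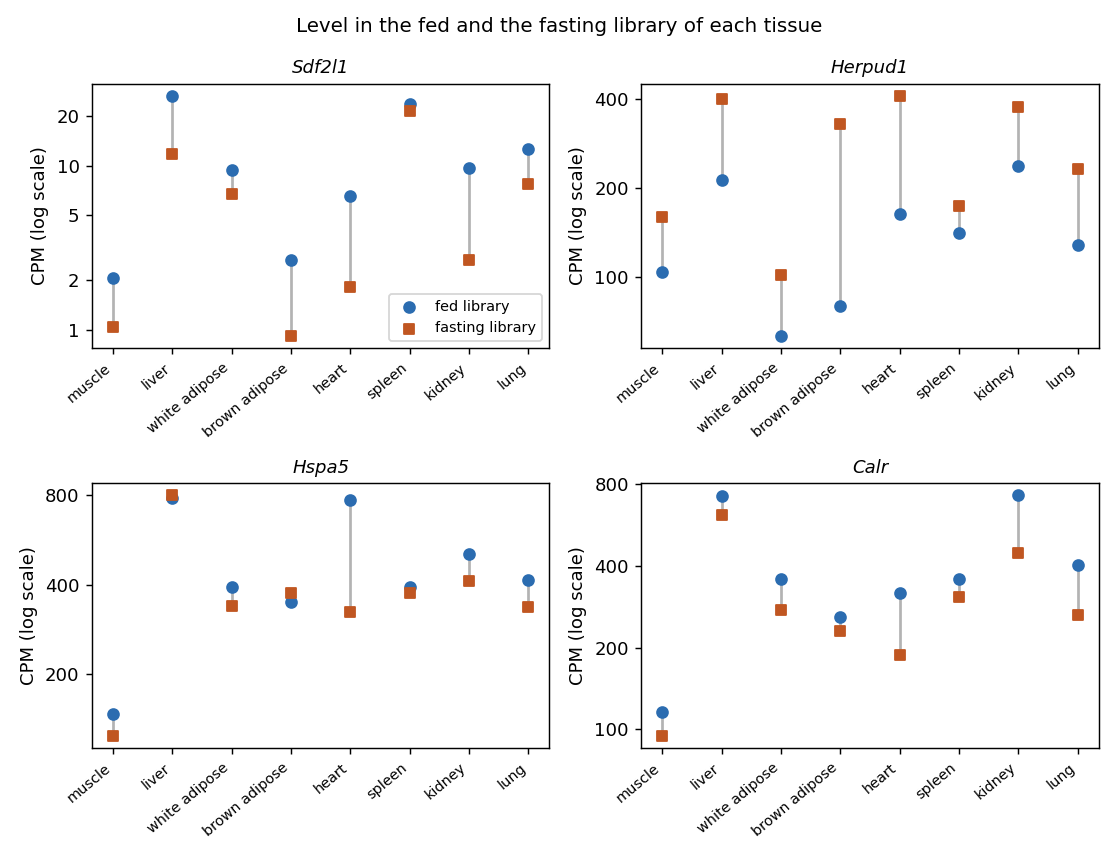
Level of Sdf2l1, Herpud1, Hspa5 and Calr in CPM (log scale, separate range for each gene) in the fed library (blue circles) and the fasting library (orange squares) of each tissue, joined by a line. Sdf2l1 and Calr are lower in fasting in all 8 tissues, Herpud1 is higher in all 8, and for Hspa5 the line is long in heart, from 769 to 323 CPM, and short elsewhere.

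Dnajb11, the J-domain cofactor of BiP, was lower in the fasting library of 7 tissues, by less than its partner Sdf2l1 in each. A difference between these genes was not tested. Dnajb11 fell in kidney from 99.7 to 68.6 CPM (log2 fold change -0.54), a call that was lost under both other scalings (-0.47 by TMM and -0.48 by DESeq2). In the other 7 tissues its log2 fold change was between -0.28 and 0.16. Creld2 was called in no tissue, with values between -0.40 in muscle, where it had 104 counts fed and 101 fasting, and 0.29 in liver. Creld2 carries an ERSE, as do Hspa5, Hsp90b1 and Calr, which fell in heart, where Creld2 was at 13.7 and 10.9 CPM (-0.33).

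Manf fell in heart from 36.2 to 15.8 CPM, 2.29 times lower (1.97 to 2.67), and in muscle from 8.10 to 5.30 CPM. It was between -0.34 and -0.36 in liver, white adipose and brown adipose, and between -0.05 and -0.02 in spleen, kidney and lung. Manf shares 4.14% of its exon bases with Dcaf1 and 4.71% with 4930524O07Rik, both on the opposite strand, and how the counting treated strand is not given in the sources used here. Dcaf1 reached 2222 counts in a library, against at least 164 for Manf.

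Xbp1 changed little outside liver, muscle and heart. In liver it fell from 235 to 165 CPM (log2 fold change -0.51), just past the threshold, and the call was lost under either other scaling (-0.39 with both). In muscle its value was 45.9 CPM fed and 56.9 CPM fasting (0.31) and in heart 82.6 and 67.4 CPM (-0.29). In the other 5 tissues the log2 fold change was between -0.05 and 0.06.

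Herpud1, whose product supports the HRD1 ubiquitin ligase in ER-associated degradation, was the only member that rose. Fed and fasting levels were 104 and 161 CPM in muscle, 214 and 402 in liver, 63.2 and 102 in white adipose, 79.8 and 330 in brown adipose, 164 and 412 in heart, 142 and 175 in spleen, 238 and 378 in kidney and 129 and 232 in lung. The fasting library was the higher one in each tissue, and the gap was widest in brown adipose and heart. In brown adipose the count went from 1326 to 4694, a level 4.13 times higher (3.88 to 4.39), in heart from 2815 to 6282, 2.52 times higher (2.41 to 2.63), and in liver from 4935 to 10044, 1.88 times higher (1.81 to 1.94). The skeletal muscle markers (4 genes) in brown adipose summed to 2125 CPM fed and 1007 CPM fasting, and the part of this shift in the brown adipose values was not tested.

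The increase in spleen (log2 fold change 0.31) was below the threshold. At the assumed coefficient of variation of 0.2, the calls of Herpud1 held in brown adipose and heart and were lost in muscle, liver, white adipose, kidney and lung. In heart Herpud1 rose while Hspa5 fell, and the difference between their log2 fold changes was 2.58, against 0.37 in spleen. Between Herpud1 and Sdf2l1 the difference ran from 0.45 in spleen to 3.58 in brown adipose. These differences within a library pair do not depend on how the libraries were scaled.

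A fit of all 16 libraries by the quasi-likelihood test of edgeR, in which tissue was a block, asked which members moved the same way over the organs. Herpud1 rose, 1.95-fold (log2 fold change 0.96, SE 0.17, Benjamini-Hochberg adjusted p = 0.0177), Sdf2l1 fell to 0.504 of its fed level (-0.99, SE 0.19, adjusted p = 0.0259), and Calr fell to 0.769 of it (-0.38, SE 0.092, adjusted p = 0.0472). That is 1 member up and 2 down of 10, where 2.31% of the 17296 genes tested were called up and 2.08% down. All tissues of a treatment were taken from the same 3 mice, so they do not stand for independent animals, and an interaction of tissue and treatment cannot be tested with 1 library each.

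**Figure D3:**
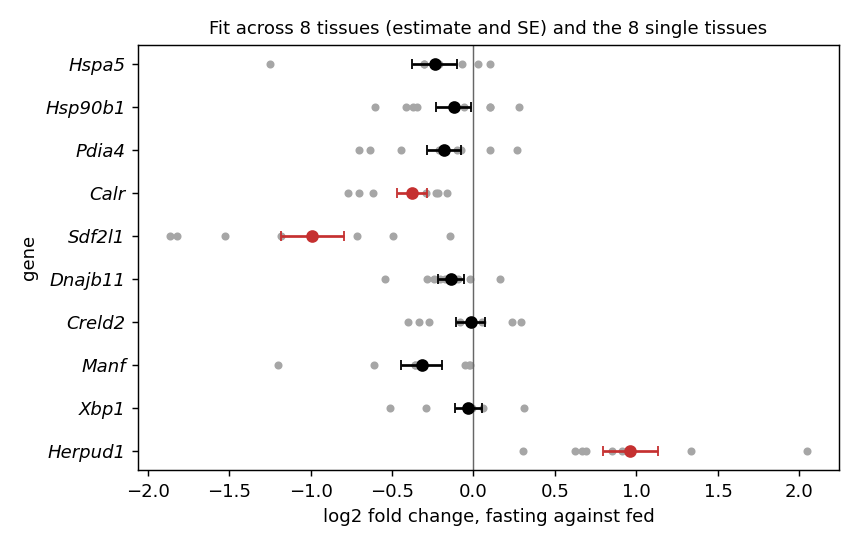
Log2 fold change (fasting against fed) of each member in the edgeR fit over 8 tissues, as the estimate with its SE, in red where the adjusted p-value was under 0.05. Grey dots are the 8 single tissues, and Herpud1 (0.96), Sdf2l1 (-0.99) and Calr (-0.38) are in red.

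The remaining 7 members were not called. Manf came nearest (-0.32, SE 0.12, edgeR adjusted p = 0.154), followed by Hspa5 (-0.24, SE 0.14, 0.319), Dnajb11 (-0.14, SE 0.079, 0.323) and Pdia4 (-0.18, SE 0.11, 0.329). Hsp90b1 (-0.12), Xbp1 (-0.03) and Creld2 (-0.02) were close to 0. The median of the 10 members was -0.16 and that of all genes tested -0.01. The 3 calls did not hold equally when a tissue was left out. Herpud1 lost its call without heart (0.90, adjusted p = 0.0526), Sdf2l1 without muscle (adjusted p = 0.0599), brown adipose (0.0635) or heart (0.0623), and Calr without any of the tissues but liver (adjusted p between 0.0592 and 0.109). Over 14 alternatives that kept the tissue block, Herpud1 stayed between 0.81 and 1.06 and was called in 13, Sdf2l1 between -1.17 and -0.87 and called in 10, and Calr between -0.46 and -0.33 and called in 5.

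Levels between genes were compared in TPM, from the counts and the gene length in the table. The 10 members summed to 2403 TPM in fed liver, 2189 in fed kidney, 1736 in fed heart and 666 in fed muscle, and the other 4 fed tissues lay between 1074 and 1647. With fasting the sum was 2555 TPM in liver, 1867 in kidney, 1404 in heart, 698 in muscle and 1424 in brown adipose. Calr had the highest TPM of the 10 in 6 of the 8 fed libraries, Hspa5 in heart and Herpud1 in muscle. Sdf2l1 had the lowest in 5 fed libraries and Manf in the other 3.

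In fed tissues Hspa5 ran from 130 TPM in muscle through 226 in spleen, 245 in brown adipose, 277 in lung, 294 in white adipose, 345 in kidney and 440 in liver to 575 in heart. Of the 7 steps in that order, 3 were wider than the difference between fed and fasting in either tissue of the step, and heart and liver were not separated by that measure. For Herpud1, from 85.7 TPM in white adipose to 295 in kidney, none of the 7 steps was wider. For Xbp1, from 52.9 TPM in muscle to 226 in white adipose, 5 were. By TPM the highest fed tissue was liver for Hsp90b1, Pdia4, Sdf2l1 and Manf, kidney for Calr, Dnajb11 and Herpud1, lung for Creld2 and white adipose for Xbp1. With TMM factors liver was the highest for all 10, so that the top tissue was the same in 4 of 10, and the order of organs depends on the scaling.

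**Figure D4:**
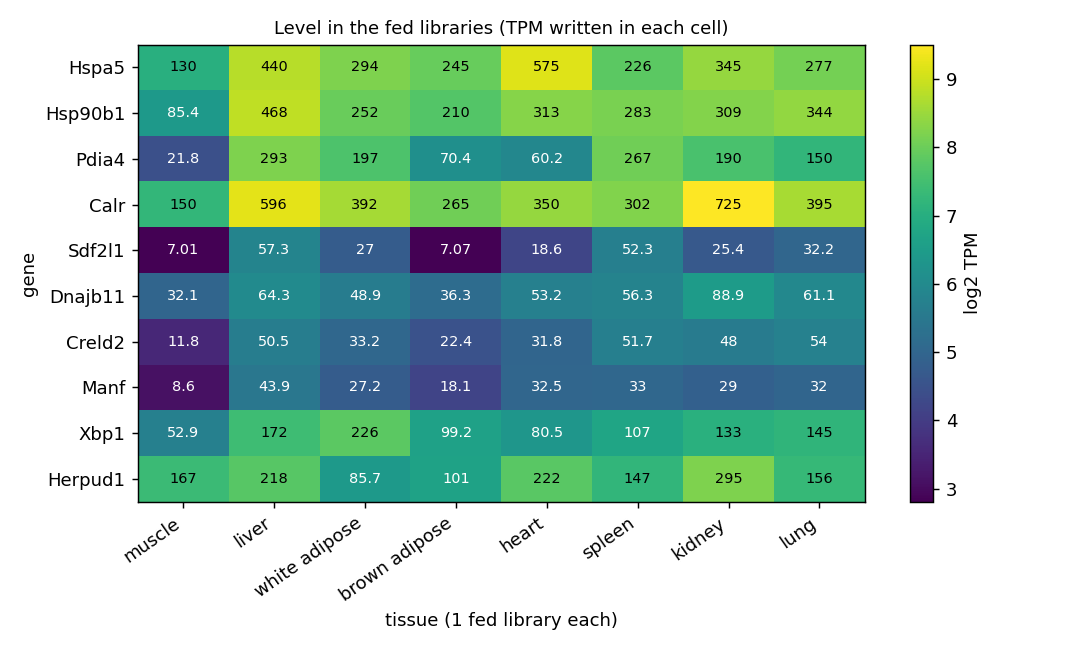
TPM of each member (rows) in the fed library of each tissue (columns), with the value written in each cell and the colour on a log2 scale. Calr, Hspa5 and Hsp90b1 are the brightest rows, Sdf2l1 and Manf the darkest, and muscle is the lowest tissue on this scale for all members but Herpud1.

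Other genes of the secretory pathway were taken from lists of other folding factors, degradation factors, stress sensors with the PERK arm, translocon and signal peptidase, N-glycosylation and COPII transport. In the edgeR fit over all tissues, 2 of the 77 genes in these 6 lists were called, both up. That share of 2.6% is near the 2.31% of all genes tested that edgeR called up. None was called down, where 2.08% of all genes tested were. DESeq2's Wald test called 6 of the 17 other folding factors, 4 of the 14 translocon genes and 6 of the 10 N-glycosylation genes down. It called 2, 1 and 0 of these up, and 844 genes up and 988 down in all. The 2 genes called by edgeR were Dnajb9 (log2 fold change 0.50, SE 0.095, adjusted p = 0.0227), another J-domain cofactor of BiP and a target of Xbp1, and Trib3 (0.73, SE 0.16, adjusted p = 0.0373), a pseudokinase induced by ATF4. Dnajb9 was higher in the fasting library of all 8 tissues, from 0.14 in liver to 1.05 in muscle, as was Trib3, from 0.36 in heart to 1.67 in brown adipose.

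Among the 17 other folding factors the median over tissues was -0.07, and 9 of them had an unadjusted p under 0.05. The membrane lectin Canx (-0.10, edgeR adjusted p = 0.507) and the disulfide isomerase P4hb (0.01, adjusted p = 0.947), the 2 most abundant, were not called. DESeq2's Wald test, which called 844 genes up and 988 down in all, called 2 of the 17 up and 6 down. In heart 4 of the 17 were called down and none up, where 9.57% of genes with at least 10 CPM were called down. Those were Pdia3, Hyou1, Pdia6 and Fkbp2, named after their values were seen, of which Hyou1, the nucleotide exchange factor of BiP, had the largest change at -1.0. In liver 4 of the 17 were called down (Ppib, Pdia6, Ero1lb and Fkbp2) and 1 up (Cdnf, a relative of Manf). There 9.52% of all genes with a count were called down and 4.46% up, or 15.4% and 7.37% of those with at least 10 CPM. Also called down were Pdia6 and Txndc5 in muscle, Pdia3 and Pdia6 in kidney, Hyou1 in brown adipose and Fkbp2 in white adipose. Of genes with at least 10 CPM, 13.6%, 4.81%, 12% and 9.26% were called down in these tissues. Dnajb9 was called up in muscle and both adipose tissues, where 8.96% (muscle), 15.9% (white) and 9.5% (brown) of such genes were. Cdnf was called up in 5 tissues, at 1.26 in liver, 0.77 in white adipose, 0.74 in brown adipose, 1.17 in spleen and 0.99 in kidney, and over all tissues it was at 0.55 and not called by edgeR (adjusted p = 0.0691). Its level was low in liver, at 0.564 CPM fed and 1.36 CPM fasting, and highest in muscle, at 53.1 and 46.8 CPM. Ppib, Ero1lb, Txndc5 and Cdnf too were named after their values were seen.

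In liver other lists moved beside the members. There 8 of the 14 translocon and signal peptidase genes fell, with a list median of -0.54, and 4 of the 10 N-glycosylation genes, with a median of -0.37, against the 15.4% of genes called down in liver given above. The highest member of the first list, Ssr3, a subunit of the translocon-associated complex, was at -0.60 in liver and between -0.17 and 0.07 elsewhere, while Sec62 was at -0.17 in liver and not called. In the same libraries Hspa5 and Hsp90b1 were at 0.03 and 0.10, while 6 of the 10 members were below 0, with a median of -0.20. In heart no translocon gene was called and 2 of the 10 N-glycosylation genes fell, where 9.57% of genes with at least 10 CPM did. In brown adipose 3 of the 14 translocon genes were called up, Sec62 among them, and none down, with a list median of 0.12. There 9.5% of genes with at least 10 CPM were called up. In muscle and kidney 1 translocon gene each was called down, where 13.6% and 4.81% of such genes were. A difference between the organs was not tested. Over all tissues edgeR called none of the 14 translocon and 10 N-glycosylation genes, with 6 and 4 at an unadjusted p under 0.05, while DESeq2 called 4 of the 14 down and 1 up, and 6 of the 10 down.

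Genes of ER-associated degradation were called in both directions in single tissues. Over all tissues none of the 14 was called by edgeR's quasi-likelihood test, 2 had an unadjusted p under 0.05, DESeq2 called 0, and the median was 0.00. Vcp, the ATPase that extracts proteins from the ER membrane, was at 0.03. By tissue, Edem1 and Syvn1 rose in muscle (1.20 and 0.63) and Derl3 in white adipose (1.41). Edem1 fell in liver, white adipose and brown adipose (-0.86, -0.76 and -0.72), Edem2 and Derl2 in liver (-0.71 and -0.78) and Derl1 in brown adipose (-0.76), named after their values were seen. That is 3 of 14 down in liver, 2 of 13 up in muscle, 1 of 14 in each direction in white adipose and 2 of 14 down in brown adipose. Of genes with at least 10 CPM, 15.4% were called down in liver, 8.96% up in muscle, 15.9% up and 9.26% down in white adipose and 12% down in brown adipose.

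The stress sensors and the PERK arm gave calls in both directions. In muscle Chac1, Ppp1r15a and Ern1 rose (2.17, 2.0 and 0.59) and Ddit3, which encodes CHOP, fell (-2.06), so 3 of 12 were up and 1 down, where 8.96% and 13.6% of genes with at least 10 CPM were. In white adipose Chac1, Asns and Ppp1r15a rose (2.47, 0.72 and 1.05) and Ddit3 fell (-0.89), where 15.9% and 9.26% of genes did. In heart Atf3, Chac1 and Ppp1r15a rose (1.59, 1.32 and 1.24), where 7.36% of genes did, and in brown adipose Chac1 and Trib3 rose (0.94 and 1.67) and Ddit3 fell (-0.74), where 9.5% and 12% did. Liver went partly the other way, with Asns up (0.63) and Chac1, Ern1 and Atf4 down (-1.61, -0.98 and -0.86), where 7.37% and 15.4% of genes were called. Kidney had no call. Atf3 fell in spleen and lung (-1.10 and -1.44), 1 of 10 and 1 of 12, where 1.25% and 6.76% of genes with at least 10 CPM were called down. Trib3 rose in lung (0.71), 1 of 12, where 3.68% of such genes were called up. All of these but Trib3 were named after their values were seen. The abundant members Atf6 and Ppp1r15b were called in no tissue. Of the 10 COPII genes none was called over all tissues by edgeR, 1 had an unadjusted p under 0.05 and DESeq2 called 1 down, with Sec16a at 0.17 and Sec31a at 0.05. By tissue, Sec24a rose and Sec24d fell in muscle, and Sec23a rose and Sec23b fell in liver. Sec13 fell in white adipose, and Sec23b in heart and kidney. Each call is 1 of 10, where 4.81% to 15.4% of genes with at least 10 CPM were called the same way. These COPII genes called by tissue were named after their values were seen. Rpn2 (-0.12) and Stt3b (0.19) of the oligosaccharyltransferase were not called over all tissues by edgeR, while DESeq2 called Rpn2 down. Within single tissues Stt3b was called up in lung (0.84) and Rpn2 was called in none.

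**Figure D5:**
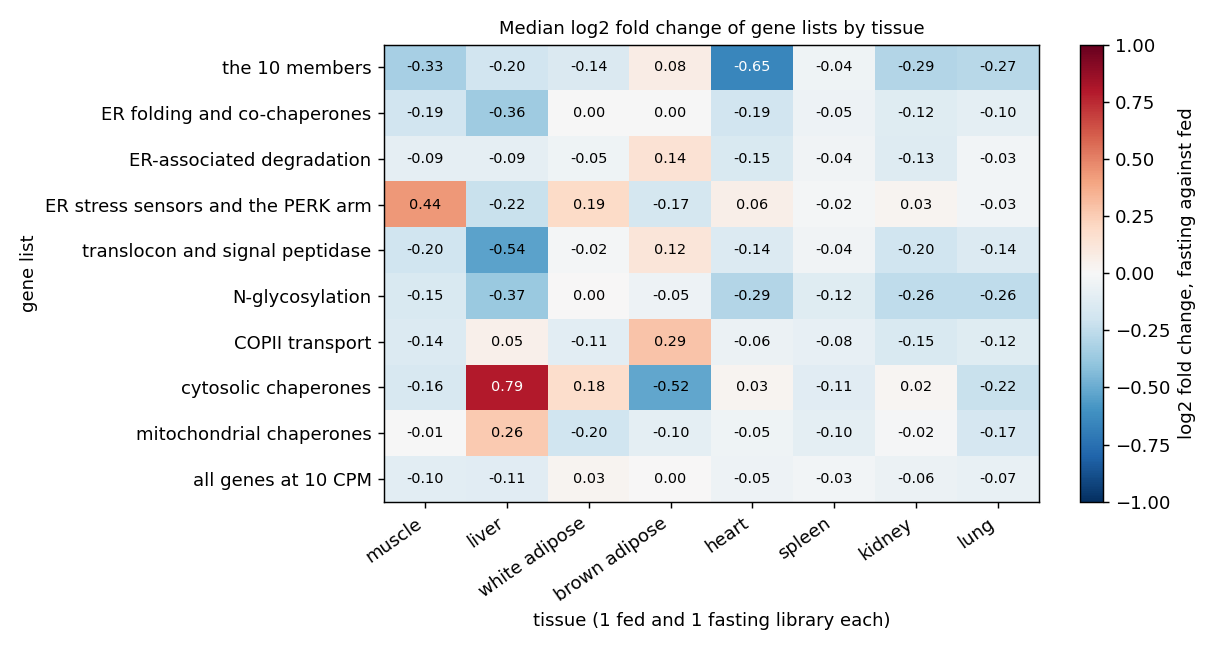
Median log2 fold change (fasting against fed) of the 10 members, of 8 other gene lists (genes with at least 1 CPM in a library of the tissue) and of all genes with at least 10 CPM, by tissue. The members are at -0.65 in heart, and the lowest list median in liver is that of the translocon, at -0.54.

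The genes whose 8 fold changes were most like those of Hspa5 were Fbxw11, Cltc, Prkar1a, Crkl and Hnrnpm, with Pearson correlations of 0.95, 0.94, 0.92, 0.92 and 0.92 over 8 tissues, out of 5257 other genes that reached 10 CPM in all 16 libraries. All 5 had their lowest value in heart, and with heart left out, an alternative chosen after seeing the data, the values were 0.90, 0.79, 0.09, 0.79 and 0.44. Over the 5257 other genes and all 8 tissues, the median correlation was 0.02 and the 95th percentile 0.60. Among the members the correlation with Hspa5 was 0.79 for Calr and Hsp90b1, 0.75 for Manf, 0.69 for Pdia4, 0.58 for Creld2, 0.42 for Sdf2l1, 0.30 for Dnajb11, 0.17 for Xbp1 and -0.08 for Herpud1. Without heart it was 0.86 for Hsp90b1, 0.83 for Calr, 0.69 for Dnajb11, 0.60 for Herpud1, 0.58 for Creld2, 0.55 for Pdia4, -0.06 for Sdf2l1, -0.22 for Manf and -0.54 for Xbp1. The values of Hsp90b1, Calr and Creld2 moved by little, and those of Manf, Sdf2l1, Dnajb11, Xbp1 and Herpud1 depend on heart. Spearman's rho over the 8 tissues was 0.95 for Calr, 0.90 for Hsp90b1, 0.74 for Creld2, 0.67 for Pdia4 and 0.62 for Dnajb11. It was 0.36 for Sdf2l1, 0.26 for Manf, 0.14 for Herpud1 and -0.02 for Xbp1. The 8 points share the same pools of mice and, within a tissue, the same library totals, so these values are descriptions with no test.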

How the data were processed

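Per the labels and the study's methods, the authors made 16 libraries that keep strand, 1 for each of 8 tissues and 2 treatments, and read 100 bp from both ends. The submitters' notes name fastp 0.23.2, FastQC 0.11.8, HISAT2 2.2.1.0 and featureCounts (Subread 2.0), with GRCm38 and GENCODE mouse release 24. The deposited values are raw counts per gene and library, together with gene length in bases, another value, written by the authors' counter. The counted unit (read or pair) and the strand setting are not given in the sources used here. The 37 mitochondrial genes held 0 counts. No sample column went unused, and the DRS and ATAC-Seq data of the study were not analysed here.

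Members were matched by gene ID, and 55144 of 55385 IDs had a symbol. CPM used library totals (14245178 to 36069968), and a pseudocount of 0.01 CPM was added to both libraries before the log2 ratio of fasting to fed was taken. Fisher's exact test ran on all genes with a count in each tissue. Ratios carry exact 95% binomial intervals, which cover counting error only, as does the floor of 3 counts. The fit over tissues used edgeR 4.0.16 in R 4.3.3, with TMM, filterByExpr grouped by treatment, tissue as a block, 7 residual degrees of freedom and Benjamini-Hochberg adjustment over 17296 genes. The common coefficient of variation was 0.1956. Tested on simulated data, the Fisher step in liver found 200 of 200 altered genes (65 false calls, 23840 genes), and the edgeR fit 199 of 200 (11 false calls, 17049 genes). The simulation for the fit drew libraries independently at the common coefficient of variation, with the same change in every tissue. It held no pool effect shared by the tissues of a treatment. These false calls are therefore not an error rate for the pooled libraries here. Figures were drawn with matplotlib 3.10.9, and the remaining steps ran in Python 3.11.15 with scipy 1.17.1, pandas 2.3.3 and numpy 2.4.6.

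The members and lists were chosen with earlier results of these data known. Named genes are the 10 members, the 2 most abundant genes of each list and those called across tissues, the 5 most like Hspa5 and the highest gene of a marker list, and others are said to be named after their values were seen. A gene that this rule selects is not reported here. A second Ddit3 row of 105 bases was left out. Alternatives were TMM factors or the size factors of DESeq2 1.42.0, a pseudocount of 1 CPM, a filter at 1 CPM, an assumed coefficient of variation of 0.2 in edgeR's exact test and adjusted p-values. For the fit they were DESeq2's Wald test, library totals, no filter, no tissue block, robust dispersion and tissues left out.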

Additional observations from a re-analysis of the deposited data

Results flagged for a closer look

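Hspa8, the constitutive Hsp70 chaperone of the cytosol, had opposite values in 2 tissues, with a log2 fold change of 1.68 in liver and -0.54 in brown adipose, both called between fed and fasting libraries. The difference between the tissues was not tested, because each has 1 library per treatment.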

How the results depend on the processing

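With 1 pooled library per tissue and treatment, the calls within a tissue carry counting error only. At an assumed coefficient of variation of 0.2 in edgeR's exact test, calls up went to 0 in muscle, liver, white adipose, kidney and lung, and calls down went to 0 in muscle, brown adipose and lung, to 1 in liver and kidney (Sdf2l1 in both) and to 3 in heart (Hspa5, Sdf2l1 and Manf). TMM factors and DESeq2's size factors moved all log2 fold changes of a tissue by up to 0.12 (liver upward, white adipose downward). Under either, calls down went to 1 in liver, where Xbp1 was lost, and to 1 in white adipose, where Sdf2l1 was gained. Values near 0 changed sign by TMM and by DESeq2 scaling, respectively, for Dnajb11 in muscle (0.056 and 0.057), Hsp90b1 in white adipose (-0.0019 and -0.012), Xbp1 in spleen (0.0088 and 0.0060) and kidney (0.029 and 0.012) and Manf in kidney (0.025 and 0.0084) and lung (0.051 and 0.048).

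In the fit across tissues, 1 member was called down with no filter on low counts, 0 with both adipose tissues left out, and 0 up and 0 down with no tissue block, where 0 genes of the whole table were called up and 1 down. Leaving out each tissue in turn gave 0 to 1 members called up and 0 to 2 called down. Leaving out 1 tissue gave -0.085 to 0.019 for Creld2 and -0.10 to 0.019 for Xbp1. Creld2 changed sign with no tissue block (0.086) and without muscle (0.0089), heart (0.019) or kidney (0.015), and Xbp1 without liver (0.019) and with spleen and liver left out (0.020), the last chosen after seeing the data because of the acinar markers. Of the 5 genes most like Hspa5, 1 remained with Spearman's rho, 2 with TMM factors and 0 with heart left out. The highest fed tissue was the same in 4 of 10 members with TMM factors. The cause of these changes was not tested. The tissue block of the main fit pairs the fed with the fasting library of each tissue, and no replicate numbers exist within a tissue. Direction and side of the threshold were kept in 571 checks of single values, while 39 lost their call, 2 gained one and 18 changed sign. The filter at 1 CPM removed no member, so its checks repeat the main result. Direction could not change with the other pseudocount, the exact test or adjusted p-values. Of the checks of summary counts, 100 were equal or close to the main count and 31 moved. A close count can hide a lost call, such as that of Dnajb11 in kidney. The depth limits Sdf2l1 most, at 13 to 616 counts.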

Other observations

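In liver 9 of the 12 cytosolic chaperones were called up and none down, with a list median of 0.79, where 4.46% of all genes with a count were called up. Hspa8 was at 1.68 and Hsp90ab1 at 0.52 there, and Hspa1a and Hspa1b, the heat-inducible Hsp70 genes, named after their values were seen, at 3.11 and 2.13. In brown adipose 6 of the same 12 were called down and none up, with a list median of -0.52, where 7.58% of genes were called down. Over all tissues none of the 12 was called by edgeR's quasi-likelihood test, 2 had an unadjusted p under 0.05, and DESeq2 called 1 (Bag3, up). In the other 6 tissues calls were fewer. They were 2 down in muscle (Dnaja1 and Hspa1a), 1 up and 1 down in white adipose (Hsph1 and Dnaja1), 3 up and 2 down in heart (Hspb1, Bag3 and Hspa1a, against Hsph1 and Stip1), 1 down in spleen (Hspb1), 2 up in kidney (Hspa1b and Hspa1a) and none in lung. Of all genes with a count, 9.39% were called down in muscle, 13.2% up and 5.84% down in white adipose, 4.33% up and 5.8% down in heart, 1.62% down in spleen and 2.77% up in kidney. These genes other than Hspa8 and Hsp90ab1 were named after their values were seen. In liver and brown adipose the median of the 10 ER genes was -0.20 and 0.08, and a difference between the lists was not tested.

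Of the 8 mitochondrial chaperones, 1 was called down in lung (Hspe1, named after its values were seen) and none in the other 7 tissues by Fisher's exact test (two-sided) and the fold threshold, where 6.49% of all genes with a count were called down in lung, so 1 of 8 is near background. Over all tissues none was called by edgeR, with 0 at an unadjusted p under 0.05 and 0 called by DESeq2. Hspd1 was at 0.40 in liver and -0.43 in white adipose, and Hspa9 at 0.17 and -0.32. In white adipose Lrp2, an endocytic receptor listed among the kidney tubule markers, was at 34.9 CPM fed and 710 CPM fasting, while Kap, named after its values were seen, was at 20.4 and 18.2 CPM.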
